A study of Rattus norvegicus with 4 samples.

Results

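The genes described here are the long noncoding RNA (lncRNA) genes that were expressed in rat embryonic stem cells (ESCs). They were selected on their summed raw counts: from the deposited table were taken the genes with the biotype lincRNA, antisense or processed_transcript, off chromosomes X and Y, with at least 100 counts summed over the 4 libraries. This rule gave 103 genes, namely 68 lincRNA, 29 processed_transcript and 6 antisense genes, of 34773 genes in the table. Of 3230 genes with these biotypes, 2371 had 0 counts and 740 had 1 to 99 counts. The other 16 genes past the threshold lie on the excluded chromosomes. The threshold is a sum in which the 3 knockout libraries outweigh the control, so a gene present only in the control needed all its counts in 1 library. The genes just inside it were AABR07028908.2 and AABR07035437.1 with 101 counts each and AABR07045350.1 with 102, and those just outside it were AABR07026576.2 with 99, AABR07052587.2 with 98 and AABR07072528.4 with 97.

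Polyadenylated RNA was sequenced from DA-5-3GFP, a rat ESC line that carries a GFP reporter in Rex1 and served as WT, and from 3 Thop1-KOGFP subclones (#1, #2 and #3) made from it with Cas9. Each culture gave 1 library, each knockout line is 1 clone, and all carry the reporter. Cultures of the study's rat ESCs held feeder cells and 2i/LIF medium. The study describes DA-5-3 as diploid, while the deposited design text calls the sequenced cells haploid. The control is 1 library, which leaves the 3 subclones to measure the spread, and a difference between the genotypes cannot be told apart from a difference between that culture and the others. By exact permutation the smallest one-sided p of this design is 0.25, so the adjusted p-values given here rest on the variance model of edgeR.

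LncRNAs are transcripts that are not known to encode a protein. Many are spliced and polyadenylated like messenger RNAs but are less abundant and more restricted to particular cell types, and they are made from their own promoters, from the opposite strand of protein-coding genes or from promoters shared with a neighbour that is read in the other direction. Some act in the nucleus on chromatin or on neighbouring genes, some host small RNAs, and for most no function is known. A processed transcript is a transcript of a locus, which may be protein coding, for which the annotation holds no open reading frame.

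The counts on genes summed to between 15405499 and 17936544 per library, and 15028 genes passed the filter on low counts. Thop1 itself had 370 CPM (counts per 1000000, normalized by the TMM method) in DA-5-3GFP and 110, 92.5 and 149 CPM in the subclones, a log2 fold change of -1.66 ± 0.29 (SE, adjusted p = 0.0187). Of 9 pluripotency markers in the table, Esrrb and Tfcp2l1 rose, Dppa5 and Utf1 fell, and Pou5f1 was at 3890 to 4840 CPM in every library. The summed level of 9 fibroblast and feeder markers was 262 CPM in DA-5-3GFP and 386 to 778 CPM in the subclones, highest in #2. Most of it was Col1a1, at 190 CPM in DA-5-3GFP and 304, 555 and 374 CPM in #1, #2 and #3. Acta2 lay below the control in every subclone, and Thy1, Dcn and Lum were at 0 in every library. None of the 6 tested markers was called. The 9 primitive endoderm markers summed to 856 CPM against 1230 to 1790 CPM, nearly all of it Lama1, and 8 neural, mesoderm and trophoblast markers to 106 CPM against 121 to 145 CPM, among which Nes fell. The part of these cells in the differences below was not tested, and in bulk RNA fewer cells of a type and less RNA per cell cannot be told apart.

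The biotype labels were checked against RefSeq by gene symbol. Of the 103 genes, 21 had a match, and 15 of these are protein-coding genes in RefSeq, among them Trrap, Snx3, Itgb5, Top2b, Arid5b, Smg1 and Cacna1i. Of those 15, 14 carry the label processed_transcript in the deposited table. For these genes the noncoding label is that of the annotation used by the authors, and the counts may come from transcripts that encode protein. RefSeq lists 6 genes as lncRNA genes, including Tug1, a widely expressed nuclear lncRNA. The 82 unmatched genes have names made from a clone or a locus number. The lncRNA gene lists used here hold well-known names such as small nucleolar RNA host genes, nuclear architectural, imprinted and stem cell lncRNAs. Of these names, Tug1 alone was found among the 103 genes. Nearly all the others, among them Malat1, Meg3 and Gas5, have no entry under that name in the table. Whether those genes were expressed is therefore not known from these data. The lists also held Snhg11, Mest and Plagl1, which the table labels as protein coding, so not every listed name is a lncRNA gene there. They were not counted as lncRNA genes.

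The starts of 17 of these genes have a sequence in RefSeq's promoter table (build GRCr8, 250 bases before to 50 bases after the start that RefSeq gives). Examples are shown here because they carry results of the comparison: Itgb5 and Snx3 are the RefSeq-matched genes with the smallest p-values in each direction, and Tug1 and LOC102550121 are the RefSeq lncRNA genes furthest below the control. Capitals mark CpG dinucleotides, the sites of DNA methylation in mammals.
Itgb5 (chr11:80449324-80449623, minus strand): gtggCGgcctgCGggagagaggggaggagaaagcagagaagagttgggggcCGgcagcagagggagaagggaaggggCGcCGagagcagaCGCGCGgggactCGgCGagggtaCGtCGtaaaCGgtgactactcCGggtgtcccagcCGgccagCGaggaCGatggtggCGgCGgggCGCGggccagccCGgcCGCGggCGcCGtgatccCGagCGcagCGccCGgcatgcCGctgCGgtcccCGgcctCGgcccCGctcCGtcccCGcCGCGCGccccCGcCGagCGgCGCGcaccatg
Snx3 (chr20:47574690-47574989, plus strand): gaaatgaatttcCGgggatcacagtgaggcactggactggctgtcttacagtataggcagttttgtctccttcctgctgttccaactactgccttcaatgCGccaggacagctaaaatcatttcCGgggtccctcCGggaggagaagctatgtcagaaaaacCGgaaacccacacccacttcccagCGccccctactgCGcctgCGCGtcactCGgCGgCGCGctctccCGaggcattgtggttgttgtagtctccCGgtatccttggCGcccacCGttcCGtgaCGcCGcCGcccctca
Tug1 (chr14:82750485-82750784, minus strand): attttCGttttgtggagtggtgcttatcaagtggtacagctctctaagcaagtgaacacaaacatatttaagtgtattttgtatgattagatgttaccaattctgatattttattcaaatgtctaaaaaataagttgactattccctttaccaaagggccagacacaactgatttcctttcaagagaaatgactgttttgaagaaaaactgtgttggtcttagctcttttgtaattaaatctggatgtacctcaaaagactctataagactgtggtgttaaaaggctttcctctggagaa
LOC102550121 (chr15:31741650-31741949, plus strand): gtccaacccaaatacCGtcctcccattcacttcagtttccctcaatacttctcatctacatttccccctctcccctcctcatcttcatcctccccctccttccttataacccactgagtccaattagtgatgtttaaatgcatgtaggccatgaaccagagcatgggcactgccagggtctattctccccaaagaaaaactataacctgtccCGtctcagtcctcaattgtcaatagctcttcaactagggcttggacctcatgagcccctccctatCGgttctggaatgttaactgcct
The windows of both protein-coding genes were rich in CpG, with 45 in Itgb5 and 21 in Snx3, beside a median of 7 over 27457 RefSeq promoters of this length. The windows of the lncRNA genes held 1 in Tug1 and 3 in LOC102550121. Whether transcription begins at the RefSeq start in these cells was not tested, so a window need not be the promoter in use. Over all 17 windows the kinds of gene overlapped. RefSeq lncRNA genes ranged from 1 to 17 CpG, the latter in LOC102549726, and protein-coding genes from 5 in Plekha6 to 45. The 4 printed windows were chosen by results of the comparison and do not stand for either kind. On either strand, CCAAT occurred in the Tug1 and LOC102550121 windows and in 37.7% of all promoters, GGGCGG in the Snx3 window and in 34.9%, and TATAAA in none of the 4 and in 14.3%. These counts describe the letters of the windows and say nothing of the factors that may bind there. No sequence is printed for the other genes.

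The 103 genes were minor components of the transcriptome. Their counts made up 0.163% of all counts in DA-5-3GFP and 0.149%, 0.151% and 0.163% in #1, #2 and #3. The knockout mean of 0.155% ± 0.0078 (SD, n = 3) lay beside the control. Without the 15 genes that RefSeq lists as protein coding, the shares were 0.087% in DA-5-3GFP and 0.0787%, 0.0693% and 0.0852% in #1, #2 and #3. For that smaller set the control lay above each subclone. The median of their mean FPKM, a level per gene length, was 3.63, beside 4.76 over all genes tested, and the range was 0.216 to 142. Only 23 genes had a mean FPKM of at least 10. The median exon length was 1509 bases beside 2096 over all genes tested.

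The most abundant gene per length was Snx3, which encodes a sorting nexin of endosomes, at 250.0 FPKM in DA-5-3GFP and 121, 101 and 96.9 FPKM in the subclones. AABR07002969.1, a lincRNA gene on chromosome 1, was next by its mean, at 7.02 FPKM in DA-5-3GFP and 96.4, 86.4 and 99.4 FPKM in #1, #2 and #3. Both genes had the control outside the range of the subclones, on opposite sides. LOC102549726 followed with 48.3, 76.4, 27.1 and 92.7 FPKM, and here the control lay among the subclones. This gene overlaps the class I histocompatibility genes RT1-CE4, RT1-CE7 and RT1-CE1, which are close copies of each other, so its counts are uncertain. AABR07015507.1, AABR07044389.1, AABR07036452.1, AC135142.1 and AABR07067401.1 had mean FPKM values of 41.3, 39.4, 37.4, 33.3 and 27.0, and none of these 5 was called in the comparison below.

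**Figure D1:**
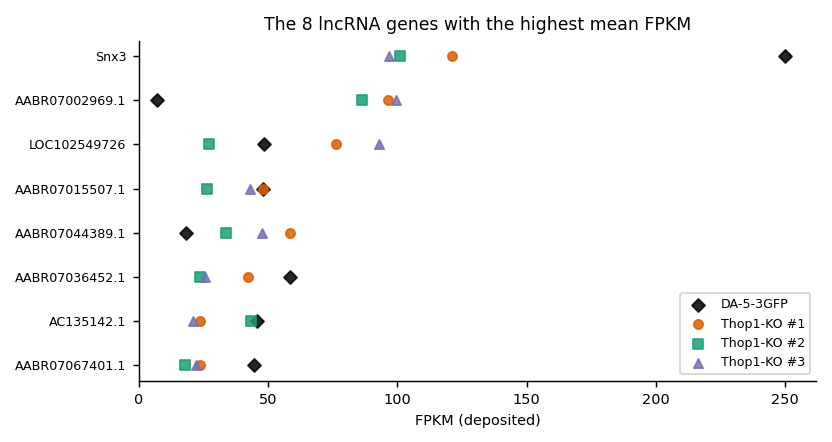
Deposited FPKM (linear axis) of the 8 lncRNA genes with the highest mean FPKM, with 1 symbol for each library. Snx3 is highest in DA-5-3GFP at 250.0 FPKM, AABR07002969.1 is lowest there at 7.02 FPKM, and for LOC102549726 the control lies among the subclones.

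The comparison of Thop1-KOGFP with DA-5-3GFP asked which lncRNA genes differed when Thop1, a gene of a peptide-degrading metalloprotease, was disrupted. All 103 genes passed the filter on low counts. By edgeR's quasi-likelihood test with adjustment over all 15028 genes, 16 of them were higher in the subclones (15.5%, beside 8.62% of all genes tested) and 9 were lower (8.74%, beside 5.17%). Among protein-coding genes off X and Y with the same minimum of summed counts, 10.8% were higher and 5.07% were lower. The shares were not tested against each other. Without the 15 genes that RefSeq lists as protein coding, 13 of 88 genes were higher and 7 were lower. With at least 10 counts required in every library, 10 of 85 genes were higher and 10 were lower. Under that filter 1049 of all 11852 genes tested were higher and 721 were lower. DESeq2 called 22 of the lncRNA genes higher (21.4%, beside 14.2% of all genes it gave an adjusted p) and 11 lower (10.7%, beside 7.29%), and these include all 25 genes called by edgeR.

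The calls depended on which subclones were in the fit. Without #3, 1 gene was higher and 4 were lower, and the 20 other genes had adjusted p-values of 0.0539 to 0.169. Without #2, 35 were higher and 23 were lower, and without #1, 18 and 11. The calls over all genes moved too, from 1295 higher and 777 lower of 15028 genes. They were 354 and 103 of 14761 without #3, 3096 and 2476 of 14704 without #2, and 1312 and 710 of 14824 without #1. All 25 called genes kept their direction under each of the 11 refitted alternatives that tested them. This was largely set in advance, because every refit used the same control library. For each of these genes that library lay outside all 3 subclones. Of the 25 genes, 5 kept their call under all 11: AABR07002969.1, AABR07021996.1, AABR07001432.1, AABR07065531.26 and AABR07044366.1.

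The median log2 fold change of the 103 genes was 0.12, beside 0.06 over all genes tested and 0.11 over the protein-coding genes with the same minimum. DA-5-3GFP lay below all 3 subclones for 40 genes (38.8%, beside 38.1% of all genes tested) and above them for 41 (39.8%, beside 37.6%). Fitted differences were wide, with 62 genes (60.2%) more than 1 log2 unit from 0, beside 40.6% of all genes tested and 31.9% of the protein-coding genes. The lncRNA genes had fewer counts, with a median sum of 322 beside 716 over all genes tested, and the part of low counts in this width was not tested.

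**Figure D2:**
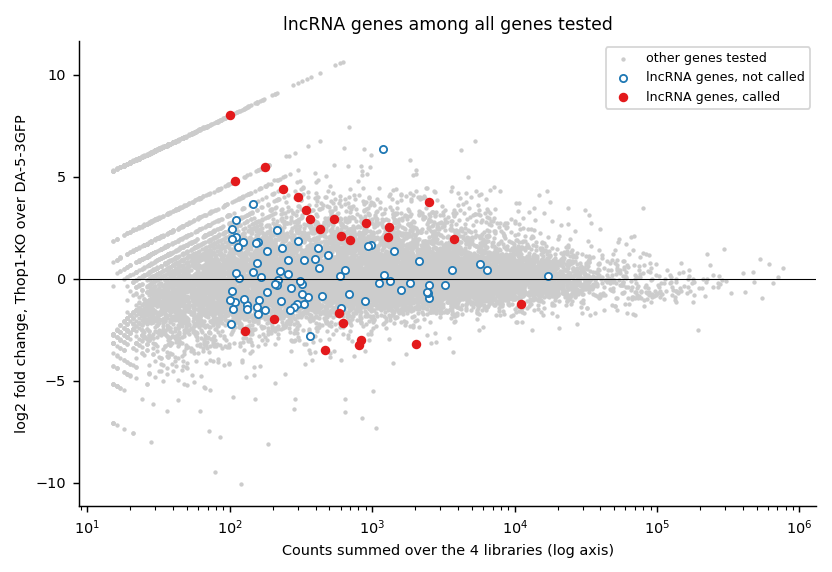
Log2 fold change of Thop1-KOGFP over DA-5-3GFP against the counts summed over the 4 libraries (log axis) for all genes tested (grey) and the lncRNA genes (25 called in red, the others as open circles). The called lncRNA genes lie on both sides of 0, and the straight grey bands on the left are genes with very few counts in the control.

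Among the genes that rose, AABR07002969.1 (ENSRNOG00000052945) stood furthest from the spread of the subclones. This lincRNA gene spans bases 90820595 to 90848674 of chromosome 1 (plus strand) in the deposited coordinates, whose build is not given in the sources used here. It had 3.50 CPM in DA-5-3GFP and 47.8, 43.0 and 50.2 CPM in #1, #2 and #3. The subclones lay close together and far above the control, with a log2 fold change of 3.74 ± 0.36 (SE, adjusted p = 0.00678). Its nearest protein-coding gene lies 70402 bases away.

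AABR07043748.2 on chromosome 19 had 1.28 CPM in DA-5-3GFP and 10.9, 10.1 and 8.79 CPM in the subclones, a log2 fold change of 2.95 ± 0.46 (adjusted p = 0.0147). AABR07068341.1 on chromosome 9 had 5.52 CPM against 21.5, 24.5 and 22.7 CPM (2.05 ± 0.36, adjusted p = 0.0185). AABR07070246.1 on chromosome 8 had 0.875 CPM against 6.02, 5.71 and 8.40 CPM (2.93 ± 0.55, adjusted p = 0.0228). For none of these 3 lincRNA genes does a protein-coding gene lie within 5000 bases, and none overlaps another gene of the table.

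A further 3 of the 16 genes that rose are RefSeq protein-coding genes. Itgb5, the gene of an integrin subunit that binds vitronectin in the extracellular matrix, whose window is printed above, had 17.2 CPM in DA-5-3GFP and 68.8, 57.2 and 74.6 CPM in the subclones (1.96 ± 0.31, adjusted p = 0.0152). Cacna1i, which encodes a T-type calcium channel, had 1.41 CPM against 8.35, 6.84 and 8.07 CPM (2.45 ± 0.47, adjusted p = 0.0237). Arid5b, the gene of a DNA-binding protein, had 2.49 CPM against 8.05, 11.4 and 12.7 CPM (2.10 ± 0.47, adjusted p = 0.0353). In each, every subclone lay above the control.

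The subclones lay further apart in 3 other lincRNA genes that rose. AABR07051326.1 on chromosome 3 had 0.336 CPM in DA-5-3GFP and 5.78, 3.39 and 7.68 CPM in the subclones (4.03 ± 0.79, adjusted p = 0.0251). AABR07021465.2 on chromosome 13 had 0.606 CPM against 5.01, 9.45 and 4.73 CPM (3.38 ± 0.71, adjusted p = 0.0293). AABR07001634.1 on chromosome 1 had 4.10 CPM against 30.7, 14.9 and 26.7 CPM (2.55 ± 0.54, adjusted p = 0.0297). The gene of the germ cell protein Tdrd5, 3841 bases from AABR07021465.2, did not pass the test (-0.56, adjusted p = 0.688).

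DA-5-3GFP had 3 counts or fewer in 5 genes, and 4 of them were called higher. These 5 genes passed the threshold of 100 summed counts through the knockout libraries. That they lie above the control was therefore largely set by the rule. The rule also favoured other genes that rose from few control counts, such as AABR07070246.1 with 13 and AABR07043748.2 with 19. No gene had 3 counts or fewer in the subclones together. AABR07018447.1 had 3 counts in DA-5-3GFP and 74, 68 and 93 in the subclones, a ratio of 22.2 (95% exact interval 7.51 to 108, for counting error only). AC108572.3 had 1 count against 70, 32 and 73 (ratio 49.6, 8.79 to 1970), and AABR07058656.1 had 1 against 48, 30 and 30 (30.6, 5.38 to 1220). AABR07035437.1 had 0 counts against 54, 16 and 31, at least 9.66-fold higher with the control set to 3 counts, and the lower limit of the exact interval of its ratio was 7.62. The intervals are wide because so few control reads lie under them. LOC103690026 had 3 counts against 5, 5 and 133 and was not called (ratio 13.5, 4.53 to 66.3, adjusted p = 0.31), and its counts came almost wholly from #3.

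Among the genes that fell, AABR07021996.1 (ENSRNOG00000051880) had the smallest p-value. It is a lincRNA gene that spans bases 101936929 to 101974632 of chromosome 13, plus strand. It had 99.2 CPM in DA-5-3GFP and 10.4, 13.4 and 8.52 CPM in #1, #2 and #3, a log2 fold change of -3.20 ± 0.30 (adjusted p = 0.00678). No other gene of the table overlaps it, and the nearest protein-coding gene, Hhipl2, is 102345 bases away and did not pass the test (0.22, adjusted p = 0.886).

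AABR07001432.1 (ENSRNOG00000059866), an antisense gene of 542 bases within the mu opioid receptor gene Oprm1 on chromosome 1, fell most on the log2 scale. It had 23.7 CPM in DA-5-3GFP and 1.73, 2.15 and 2.39 CPM in the subclones (-3.50 ± 0.35, adjusted p = 0.00678). Oprm1 itself had only 7 to 9 counts in each library and was not tested. Ipcef1, which is read from the same strand as the antisense gene and ends 3844 bases before it, rose from 1.41 CPM to 5.07, 5.83 and 5.29 CPM (1.93 ± 0.48, adjusted p = 0.0455), so these neighbours moved in opposite directions.

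AABR07065531.26 (ENSRNOG00000059660) is a lincRNA gene that spans bases 133667975 to 133676907 of chromosome 6, plus strand. It lies 84224 bases beyond Dlk1, whose neighbourhood is known in mammals as an imprinted domain with several lncRNAs, including Meg3, and a large cluster of miRNAs. The table gives this gene a clone name only, and it was not assigned to any of these lncRNAs here. It had 39.4 CPM in DA-5-3GFP and 3.58, 5.32 and 3.56 CPM in the subclones (-3.24 ± 0.35, adjusted p = 0.00705). An unnamed locus added by the authors 5604 bases before it, on the same strand from 133644998 to 133662371, had 27.4 CPM in DA-5-3GFP and 9.42, 24.7 and 14.7 CPM, and it was not called although the control lay above all subclones (-0.75, adjusted p = 0.328). Dlk1 had 12 to 21 counts in every library (0.23, adjusted p = 0.857). Of 18 miRNA genes within 90000 bases, 17 had 0 counts in all 4 libraries, which are poly(A)-selected, and a count of 0 allows up to 3 counts. The other, AABR07065531.1, lies 5372 bases from the lincRNA gene and had 2 counts in DA-5-3GFP and 6, 10 and 8 in the subclones (adjusted p = 0.381).

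AABR07044366.1 (ENSRNOG00000052122), a lincRNA gene of 528 bases (chromosome 20, 3403204 to 3403731, minus strand), had 39.0 CPM in DA-5-3GFP and 6.08, 4.75 and 3.95 CPM in the subclones (-2.98 ± 0.34, adjusted p = 0.00705). It begins 980 bases beyond the end of Mdc1, which encodes a mediator of the DNA damage checkpoint and is read from the same strand. Mdc1 rose from 14.8 CPM to 70.8, 70.4 and 69.7 CPM (2.25 ± 0.29, adjusted p = 0.00878). Nrm, the nurim gene 1889 bases to the other side, had 52.5 CPM against 44.7, 21.4 and 27.7 CPM (adjusted p = 0.242). The lncRNA gene and Mdc1 thus changed in opposite directions in every subclone.

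The other genes that fell included AABR07069227.1 on chromosome 8, with 23.4 CPM in DA-5-3GFP and 4.71, 5.66 and 5.23 CPM in the subclones (-2.17 ± 0.32, adjusted p = 0.0123). AC119762.8 on chromosome 2 had 5.38 CPM against 1.01, 1.02 and 0.668 CPM (-2.57 ± 0.53, adjusted p = 0.0278). Its neighbours within 5000 bases were Rab25, with 7 counts or fewer in each library, and AC119762.4, which was not called (1.66, adjusted p = 0.103). Snx3, whose window is printed above, had 298 CPM against 144, 120 and 117 CPM (-1.23 ± 0.23, adjusted p = 0.0216). Its neighbour among the lncRNA genes, AABR07045431.1, lies 16807 bases away and also fell, from 7.20 CPM to 2.21, 1.24 and 2.11 CPM (-1.95 ± 0.49, adjusted p = 0.0451).

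Top2b, which encodes DNA topoisomerase II beta, had 18.8 CPM in DA-5-3GFP and 4.11, 5.94 and 7.29 CPM in the subclones (-1.70 ± 0.40, adjusted p = 0.0377). Its annotated end lies 52 bases from the end of the retinoic acid receptor gene Rarb on the other strand, which had 4.58 CPM against 0, 0.453 and 0.89 CPM (-3.32 ± 1.13, adjusted p = 0.0934). The library kit named in the labels does not mark the strand, so reads near the meeting point of these genes cannot be told apart by strand.

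**Figure D3:**
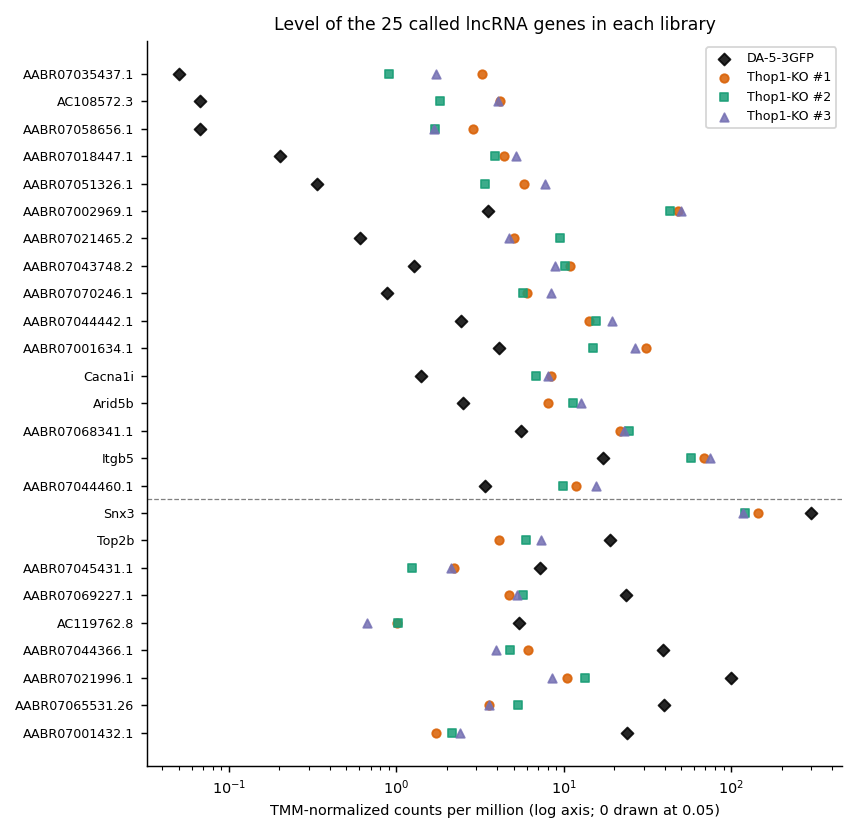
TMM-normalized CPM (log axis, with 0 drawn at 0.05) of the 25 called lncRNA genes in each library, ordered by fitted log2 fold change, with the 16 higher genes above the dashed line and the 9 lower genes below it. In every row the black diamond of DA-5-3GFP lies outside the 3 subclones, for example above them at 99.2 CPM for AABR07021996.1 and below them at 3.50 CPM for AABR07002969.1.

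Tug1 lay just on the other side of the threshold. This lncRNA gene (chromosome 14, 83878295 to 83887584, minus strand) had 17.4 CPM in DA-5-3GFP and 5.25, 5.94 and 8.40 CPM in #1, #2 and #3, and the control lay above all subclones. The log2 fold change was -1.41 ± 0.38 (adjusted p = 0.0546 by edgeR). DESeq2 gave an adjusted p of 0.0297, and the other alternatives gave 0.0119 (edgeR without #2) to 0.128 (edgeR without #3). Tug1 starts 1505 bases from Morc2, a chromatin silencing factor read in the other direction, which had 45.0 CPM against 39.0, 43.7 and 32.8 CPM (-0.23 ± 0.29, adjusted p = 0.601).

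The annotated position of the genes was compared with protein-coding genes of the same table. Of the 103 genes, 68 were intergenic with no protein-coding gene within 5000 bases, 8 were divergent from a protein-coding gene that starts within that distance on the other strand, 14 lay within it in another arrangement, 10 overlapped a protein-coding gene on the opposite strand and 3 on the same strand. Called genes were found as 10 higher and 5 lower among the intergenic genes, 2 and 3 among the other near genes, and 4 and 1 among those overlapping on the opposite strand. None of the 8 divergent or 3 same-strand genes was called. Over all 103 genes 15.5% were higher and 8.74% were lower, beside 8.62% and 5.17% of all genes tested. Most classes are small, and they were not tested against these shares. In all, 21 genes overlap some other gene of the table, and without them 11 of 82 genes were higher and 7 were lower.

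Divergent genes often share a promoter region with their neighbour, so all 8 pairs are given. The lncRNA gene and the neighbour had the same sign in 6 pairs, and none of the lncRNA genes passed the test. Among pairs with a tested neighbour, the sign was shared in 5 of 7 that overlap on opposite strands and 0 of 2 on the same strand. It was shared in 6 of 13 other near pairs and 20 of 41 intergenic pairs. These counts were not tested against each other. LOC100909912 starts 74 bases from Ncoa3, a nuclear receptor coactivator, and had 4.71 CPM against 8.82, 5.60 and 5.96 CPM (0.53 ± 0.46, adjusted p = 0.442), while Ncoa3 rose from 149 counts to 1529, 977 and 1389 counts (2.89 ± 0.41, adjusted p = 0.0111). AABR07005535.1 had 1.41 CPM against 2.98, 3.96 and 5.06 CPM (adjusted p = 0.121), and Plekha7, a gene of cell junctions that starts 348 bases away, rose from 1.88 CPM to 25.6, 13.7 and 24.3 CPM (3.49 ± 0.56, adjusted p = 0.0155). Both lncRNA genes lay above the control in every subclone without passing the test, and both neighbours passed it.

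AC135822.4 and Eif2s2, which encodes a subunit of the initiation factor eIF2, had opposite signs. The lncRNA gene had 3.36 CPM against 5.49, 2.94 and 3.56 CPM (0.25 ± 0.53, adjusted p = 0.768), whereas Eif2s2 fell from 317 CPM to 84.3, 122 and 105 CPM (-1.61 ± 0.26, adjusted p = 0.0152). AABR07044389.1, 179 bases from the decapping exonuclease gene Dxo, was the other pair of opposite sign, with 1.37 ± 0.42 beside -0.84 ± 0.30 and neither gene called. The remaining pairs were AABR07035273.1 and Pan3 (1.83 and 1.36), AABR07045680.1 and Cd99 (-0.88 and -1.09), AC111319.2 and Ccnyl1 (-1.37 and -0.71), and Tug1 and Morc2.

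**Figure D4:**
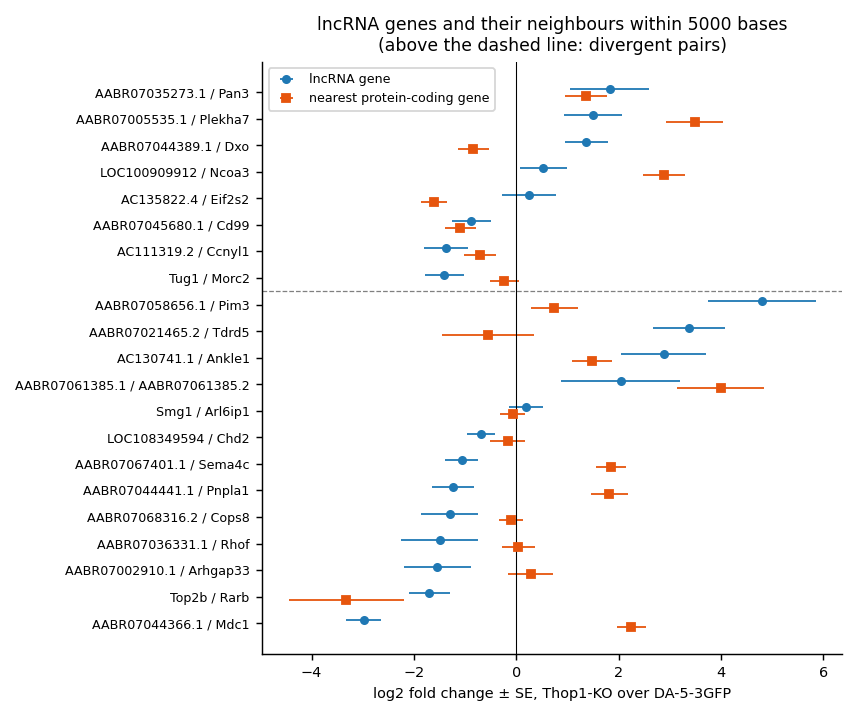
Fitted log2 fold change ± SE (Thop1-KOGFP over DA-5-3GFP) of lncRNA genes (blue) and of their nearest protein-coding gene within 5000 bases (orange), for the 8 divergent pairs above the dashed line and the 13 other near pairs with a tested neighbour below it. AABR07044366.1 and Mdc1 lie on opposite sides of 0 at -2.98 and 2.25. Both genes of a pair share their sign in 6 of the 8 divergent pairs and in 6 of the 13 other near pairs.

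Overlapping genes on opposite strands were also compared side by side. AC108572.3, antisense within the GABA-B receptor gene Gabbr1 on chromosome 20, rose by the counts given above, while Gabbr1 had 75.5 CPM against 125, 67.4 and 80.9 CPM (0.27 ± 0.38, adjusted p = 0.639). AABR07044460.1 lies within the interval of Ppil1, a spliceosomal isomerase gene, and rose from 3.36 CPM to 11.8, 9.84 and 15.5 CPM (1.88 ± 0.45, adjusted p = 0.0414) while Ppil1 did not pass the test (-0.26 ± 0.23, adjusted p = 0.453). LOC103690026 overlaps Galnt17, which had 1 count in DA-5-3GFP and 49, 32 and 85 counts in the subclones, and the share of reads that belongs to each gene of an overlapping pair is unknown.

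By chromosome, 16 of the 103 genes (15.5%) lie on chromosome 20, which holds 3.13% of the genes tested. Of these 16 genes, 4 were higher and 3 were lower, beside 14.6% of all genes tested on that chromosome in either direction. The first 7000000 bases of chromosome 20, a stretch chosen after the values were seen and known to hold the rat major histocompatibility complex, have 11 of the 16 genes, and 4 of these were called, beside 14.8% of the 169 genes tested there. Neighbouring genes in it did not always move together. AABR07044442.1 rose from 2.42 CPM to 14.2, 15.6 and 19.4 CPM (2.75 ± 0.43, adjusted p = 0.0147), while AABR07044441.1, 2913 bases away on the same strand, had 7.94 CPM against 2.74, 3.56 and 3.78 CPM (-1.24 ± 0.41, adjusted p = 0.0878). The nearest protein-coding gene to both is the lipase-family gene Pnpla1, which rose (1.82, adjusted p = 0.0251).

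The subclones differed among themselves in many lncRNA genes. Of the 103 genes, 97 had at least 10 counts in each subclone, and the median ratio of the highest to the lowest CPM was 1.76, beside 1.47 over 12577 genes tested with the same minimum. In 32 genes (33.0%) this ratio exceeded 2, beside 20.5% of those genes. The lncRNA genes have fewer counts, and among 4889 genes tested with 100 to 940 counts the median ratio was 1.67 and 32.0% exceeded 2, which is near the share of the lncRNA genes. Subclone #2 was the lowest in 21 of the 32 genes (65.6%, beside 43.5% of all such genes tested), #1 in 10 and #3 in 1.

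Plekha6, a gene of the pleckstrin homology family that RefSeq lists as protein coding, varied most among genes with enough counts. It had 39.4, 2.77 and 26.4 CPM in #1, #2 and #3 and 0.269 CPM in DA-5-3GFP. All subclones lay above the control, and the gene was not called (6.37 ± 1.86, adjusted p = 0.0657). LOC100912578 had 2.03, 18.2 and 6.29 CPM in the subclones and 14.7 CPM in DA-5-3GFP, AABR07061385.1 had 0.775, 1.19 and 3.90 CPM and 0.471 CPM, and LOC102555525 had 6.02, 1.36 and 6.34 CPM and 4.91 CPM. For LOC100912578 and LOC102555525 the control lay within the range of the subclones, and for AABR07061385.1 just below it. With 1 library for each subclone, differences between clones, cultures and libraries cannot be told apart. LOC102550121, the other lncRNA gene with a window printed above, had 16.1 CPM in DA-5-3GFP and 0.537, 4.53 and 1.89 CPM in the subclones (-2.79 ± 0.83, adjusted p = 0.0686), below the control in each but spread widely.

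**Figure D5:**
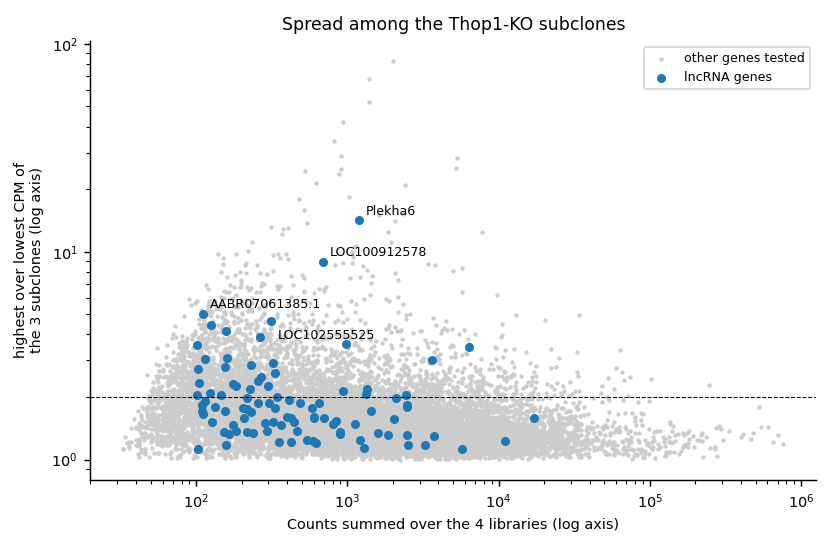
Ratio of the highest to the lowest CPM of the 3 Thop1-KOGFP subclones (log axis) against summed counts (log axis) for lncRNA genes (blue) and other genes tested (grey) with at least 10 counts in each subclone. The dashed line marks a ratio of 2, which 32 of 97 lncRNA genes exceed. Plekha6, which RefSeq lists as protein coding, exceeds it by the most at 14.2.

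Genes of protein complexes that process or bind noncoding RNA were read from the same fit, in which 8.62% of all genes tested were higher and 5.17% were lower. The counts for these lists are small and were not tested against those shares. Of 13 paraspeckle protein genes, which encode proteins of a nuclear body built on a lncRNA, 2 fell and none rose: Hnrnpm had 380 CPM in DA-5-3GFP and 60.9, 120 and 82.6 CPM in the subclones (-2.11 ± 0.35, adjusted p = 0.0161), and Taf15 fell by 2.18 on the log2 scale (adjusted p = 0.0214). Of 18 genes of the nuclear exosome, which degrades many noncoding transcripts, and its adaptors, 2 fell, namely Exosc5 (-1.07 ± 0.22, adjusted p = 0.0291) and the helicase gene Mtrex (-1.09 ± 0.28, adjusted p = 0.0465), and none rose. The median log2 fold change of these 18 genes was -0.38, beside 0.06 over all genes tested.

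Of 15 genes listed for the Integrator complex, which cleaves nascent noncoding transcripts at their ends, 4 rose and none fell. This is beside the same 8.62% and 5.17% of all genes tested. The list holds Nabp1 and Nabp2 besides the genes named Ints, and neither was called. Ints7 rose from 45.1 CPM to 130, 117 and 128 CPM (1.47 ± 0.26, adjusted p = 0.0192) and the endonuclease gene Ints11 from 35.3 CPM to 107, 91.1 and 104 CPM (1.51 ± 0.27, adjusted p = 0.0203), while the median over the 15 genes was -0.23. The other genes that rose were Ints2 and Ints9. Of 10 nonsense-mediated decay genes, Upf1 rose (1.29 ± 0.28, adjusted p = 0.0307) and Upf3b fell (-1.86 ± 0.45, adjusted p = 0.0411). Smg1, the kinase gene of this pathway, is listed among the lncRNA genes as a processed transcript and had 242 counts in DA-5-3GFP and 269, 349 and 356 in the subclones (0.19 ± 0.33, adjusted p = 0.712).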

How the data were processed

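Libraries were made by the authors from poly(A)-selected RNA with a kit that does not mark strand, and reads were cleaned with the FASTX toolkit. The submitters' processing notes name HISAT2 2.0.5 and featureCounts 1.5.0-p3, and the genome build is not given in the sources used here. The deposited table holds raw counts per gene, and the authors' deposited FPKM values match those counts over exon length, times 1 factor for each library. Counts were fitted with edgeR 4.0.16 in R 4.3.3 on all genes: filterByExpr with a minimum count of 10, TMM, and the quasi-likelihood test, adjusted by Benjamini-Hochberg, with genes called at an adjusted p-value below 0.05. The 4 libraries were grouped by genotype label. Folds against a control of up to 3 counts are given as bounds or ratios with exact 95% intervals. Positions were compared on the deposited coordinates within 5000 bases. Alternatives were other scalings and filters, DESeq2 1.42.0, limma 3.58.1 on FPKM as log2 values with a pseudocount of 1 or of 0.1, other membership rules and leaving out each subclone. Leaving out genes that RefSeq lists as protein coding was added after the data were seen. The test was checked on simulated counts. No libraries were duplicates by a chi-square comparison of counts. The genes and lists were chosen with earlier results of these data known.

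Genes were named by rule: the 8 highest by FPKM, the 8 called genes with the smallest p-values in each direction, list members, the 4 most variable among subclones, those with up to 3 counts in a group, those at the threshold, and neighbours of called genes within 5000 bases. The 8 divergent pairs, AABR07001634.1, AABR07021465.2, AABR07044441.1, AABR07044460.1, AABR07045431.1, AABR07051326.1, Arid5b and LOC102550121 with their neighbours, and the unnamed locus near Dlk1, were added after their values were seen. Figures and other tables came from Python 3.11.15, pandas 2.3.3, scipy 1.17.1 and matplotlib 3.10.9.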

Additional observations from a re-analysis of the deposited data

How the results depend on the processing

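The counts of called lncRNA genes stayed within 1.5 times of 16 and 9 under other scalings, DESeq2, limma, no filter, a fold change of at least 2 and other membership rules. With at least 10 counts in every library, 85 genes were left, of which 10 were higher and 10 were lower. Among all 11852 genes left by that filter, 1049 were higher and 721 were lower. The median log2 fold change of the 85 genes was -0.12. The median was 0.02 with upper quartile scaling and -0.02 without genes that RefSeq lists as protein coding. Leaving out a subclone gave 1 to 35 higher genes, 4 to 23 lower genes and medians of 0.05 to 0.15, and LOC102555525, at -0.10 in the reported fit, was at 0.33 without #2 and -0.41 without #3. Without #3 the calls over all genes also fell, to 354 higher and 103 lower, from 1295 and 777. They were 3096 and 2476 without #2, and 1312 and 710 without #1. The cause was not tested. The median log2 fold change of all genes was 0.06 in the reported fit, 0.17 with DESeq2 and 0.19 without a filter on low counts, where more low genes enter. No paired analysis was possible because the control has 1 library and shares no more than 1 replicate number with the subclones. Depth limits the genes near 100 counts, and with 1 control library the spread of the control is assumed to be that of the subclones.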
